A study of Mus musculus with 6 samples.

Results

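Ion channel genes were examined in mLPS1, a mouse cell line from dedifferentiated liposarcoma, a malignant tumour of the fat lineage that has lost most features of fat cells. The set holds every gene of the authors' deposited table whose symbol belongs to the potassium (Kcn), voltage-gated calcium (Cacn), voltage-gated sodium (Scn), chloride (Clcn, Clic and anoctamin, Ano) or transient receptor potential (Trp) channel families, with Kcnj8 left out. That gave 71 of 14472 genes, picked by symbol: 25 potassium, 14 calcium, 4 sodium, 16 chloride and 12 Trp channel genes. The families were chosen with earlier results of these data known. No symbol stood on more than 1 row. The mouse annotation names 184 genes with such symbols, and the other 113 were not analysed here.

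Total RNA of 6 libraries was sequenced, 3 of the line labelled WT (titles p35, p37 and p40) and 3 of the same line labelled NICD Knockout (p34, p36 and p39). NICD is the intracellular fragment that an activated Notch receptor releases and that acts in the nucleus as a cofactor of transcription. Knockout is the word of the labels, whereas the title of the series speaks of over-expressed Notch and its design text of dNICD cells. What the p number means, how the line was altered and whether the altered line is 1 clone are not given by the labels. Nothing says that libraries are separate cultures, so each p-value covers only how far these libraries scatter, and that scatter may be technical. The authors' deposited table holds 1 row per gene, with no value of a single library, so depth per library is unknown and no replicate could be left out. Each level below is a fitted normalised count per library, derived from the deposited mean and fold change on the assumption that 3 libraries of each genotype entered. A fold change is the knockout over wild type, a direction that rests on the name of the authors' table.

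Ion channels are membrane proteins whose pores let selected ions run down their gradients. Potassium channels pull the membrane potential down, voltage-gated sodium and calcium channels open when it rises, chloride channels and exchangers serve volume control and acid vesicles, and Trp channels pass cations in response to lipids, temperature, chemicals or stretch. Many pores work with accessory subunits that set their opening or their transport to the membrane. In vessel walls, L-type calcium channels, calcium-activated potassium and chloride channels and Trpc6 together set the tone of smooth muscle. Connective tissue cells carry a smaller set of them and do not fire action potentials.

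Of the 71 channel genes, 46 (64.8%) passed an adjusted p of 0.05 per the authors' deposited table: 25 rose and 21 fell. Among all genes tested, 50.5% passed, 25.4% higher and 25.1% lower, in that table. The libraries are bulk RNA, in which fewer cells of a type and less RNA per cell cannot be told apart. The median log2 fold change of the channel genes was 0.21 per the authors' deposited table, beside 0.02 over all genes tested. Direction went with expression. Of the 34 channel genes with a mean normalised count of at least 100, 17 (50%) were lower and 8 (23.5%) higher per the authors' deposited table, and their median was -0.45. Among all genes in that range 30.2% were lower and 24.4% higher, and the median was -0.05 per the authors' deposited table. Of the 37 channel genes below that mean, 17 (45.9%) were higher and 4 (10.8%) lower, and their median was 1.05 per the authors' deposited table. For all genes below it the shares were 28.1% higher and 11.6% lower and the median 0.60 per the authors' deposited table. A gene of low mean enters such a table mostly through the genotype in which it is high, so the counts at low means are a description only. Precision followed expression too: the median standard error (SE) of the log2 fold change was 0.22 in the upper range and 0.98 below it per the authors' deposited table.

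**Figure D1:**
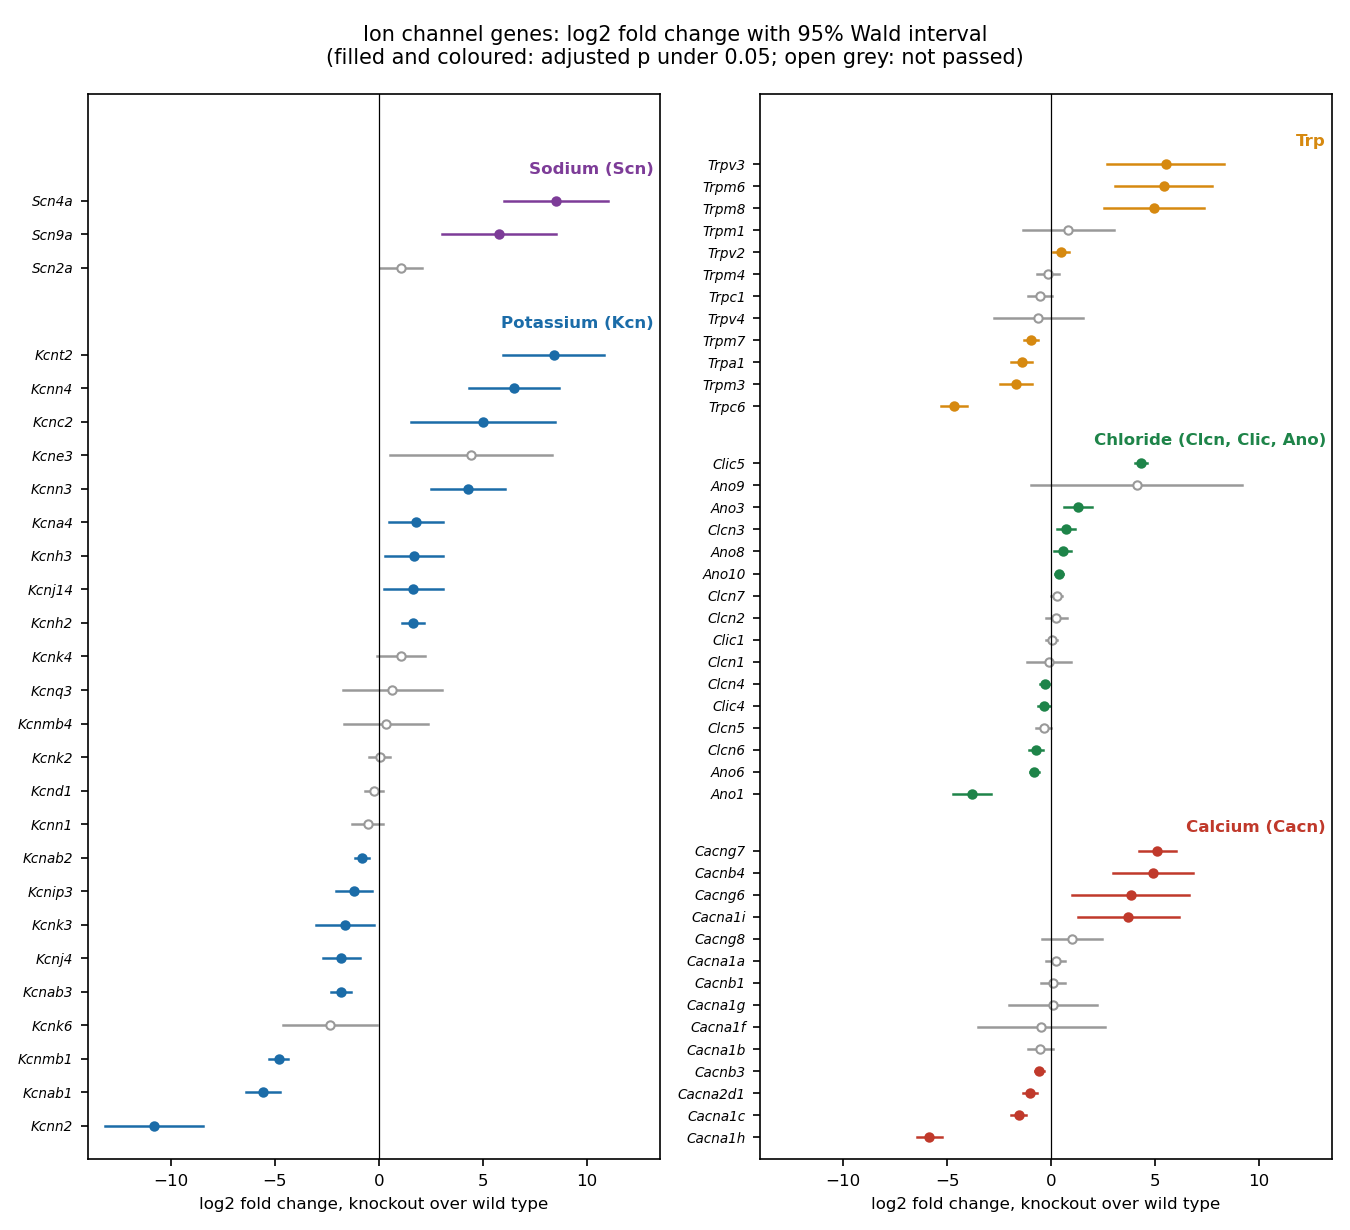
Log2 fold change, knockout over wild type, of the channel genes with 95% Wald intervals, by ion family, leaving out genes not reported here; filled coloured points passed an adjusted p of 0.05 per the authors' deposited table and open grey points did not. The lowest point is Kcnn2 at -10.82 and the highest Scn4a at 8.52, both resting on a fitted level below the floor, and wide intervals belong to genes of low mean.

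**Figure D2:**
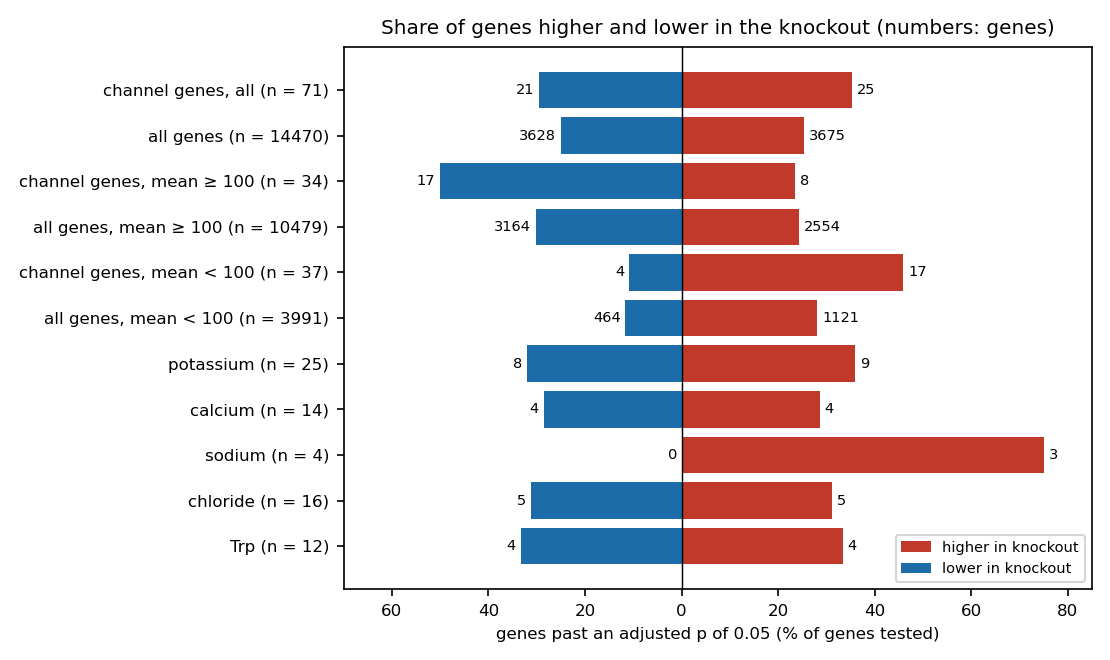
Percentage of tested genes that were higher (right) or lower (left) in the knockout at an adjusted p of 0.05, with the number of genes at each bar, for channel genes, all genes and each ion family. The 34 channel genes with a mean of at least 100 had 17 lower and 8 higher, and the 37 below it had 4 lower and 17 higher.

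The stretches of promoter printed here are examples chosen after the values were seen, from genes described below: Kcnmb1 and Trpc6, which fell, and Clic5 and Kcnn4, which rose. Each is the 250 bases before the gene's start in RefSeq on GRCm38.p6, on the plus strand, at chr11:33962763-33963012, chr9:8543892-8544141, chr17:44188322-44188571 and chr7:24370013-24370262. The authors' build is mm39, so these positions are not those of their files. Capitals mark a match to any of 3 motifs searched on both strands: TGGGAA, the core of the site bound by Rbpj, the DNA-binding partner of NICD; a pair of GAAA runs spaced by 2 bases, as in interferon response elements; and the CArG box of serum response factor, a regulator of smooth muscle genes.
Kcnmb1: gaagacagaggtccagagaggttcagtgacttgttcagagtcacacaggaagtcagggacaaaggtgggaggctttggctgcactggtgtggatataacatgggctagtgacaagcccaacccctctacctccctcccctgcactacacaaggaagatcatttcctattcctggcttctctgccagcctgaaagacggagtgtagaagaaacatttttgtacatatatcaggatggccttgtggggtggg
Trpc6: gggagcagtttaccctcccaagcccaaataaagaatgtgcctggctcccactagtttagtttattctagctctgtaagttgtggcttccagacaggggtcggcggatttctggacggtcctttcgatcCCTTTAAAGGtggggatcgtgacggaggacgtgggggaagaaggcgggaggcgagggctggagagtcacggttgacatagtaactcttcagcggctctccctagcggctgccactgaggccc
Clic5: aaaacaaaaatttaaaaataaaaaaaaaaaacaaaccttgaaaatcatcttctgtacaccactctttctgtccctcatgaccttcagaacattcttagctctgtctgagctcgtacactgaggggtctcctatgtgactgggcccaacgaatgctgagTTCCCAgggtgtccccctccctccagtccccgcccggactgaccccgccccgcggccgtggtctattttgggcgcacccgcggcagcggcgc
Kcnn4: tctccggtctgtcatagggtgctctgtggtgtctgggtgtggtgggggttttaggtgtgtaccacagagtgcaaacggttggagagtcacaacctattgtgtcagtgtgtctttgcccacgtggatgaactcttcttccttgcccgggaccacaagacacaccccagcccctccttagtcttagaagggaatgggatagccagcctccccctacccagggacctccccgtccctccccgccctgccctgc
The window of Trpc6 holds 1 CArG box and that of Clic5 holds 1 Rbpj core on the opposite strand, while the windows of Kcnmb1 and Kcnn4 hold none of the motifs. The table has 84 windows for 54 of the 71 channel genes. The Rbpj core lay in 18 of these 84 windows (21.4%), beside 21.6% of all 32851 promoter windows of the same length. It lay in 6 of 27 windows (22.2%) of lower channel genes and in 6 of 29 windows (20.7%) of higher ones. The spaced repeat lay in 4 windows (4.76%, beside 2.98% of all) and the CArG box in 1 (1.19%, beside 1.47% of all). Those 4 windows belong to Kcnab1 and Kcnc2 alone, and the pair from Kcnc2 overlaps almost fully, so windows are not independent. A match is a run of letters, not a shown binding site, and its absence says only that the letters are not in this window.

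Potassium channel genes went both ways, with 9 of 25 higher, 8 lower and 8 that did not pass per the authors' deposited table. The calcium-activated members carried the sharpest contrast within a family. Kcnn2, the pore of a small-conductance calcium-activated channel, had a fitted level of 310.0 in wild type and 0.171 in the knockout, below the floor of 1 normalised count per library (3 counts over the 3 libraries). Its log2 fold change was -10.82 (SE 1.2, adjusted p = 2.40e-18) per the authors' deposited table, and with the knockout set at the floor the drop was 310.0-fold. Kcnn4, the intermediate-conductance channel known from blood cells, fibroblasts and dividing smooth muscle, stood at 8.25 in wild type and 737.9 in the knockout. It rose 89.5-fold per the authors' deposited table (log2 change 6.48, SE 1.11, interval 4.31 to 8.66, adjusted p = 3.50e-08). That SE is large beside the median of 0.22 for channel genes in its range. Kcnn3, another small-conductance pore, rose from a fitted 1.70 to 33.3, with a log2 fold change of 4.29 (SE 0.91) per the authors' deposited table. Kcnn1, the remaining gene of that family, was at 61.2 and 42.0 and did not pass (log2 change -0.54, interval -1.30 to 0.22, adjusted p = 0.242) per the authors' deposited table. Of the 4 small- and intermediate-conductance genes, 1 was lower, 2 were higher and 1 did not pass, a count that is a description only. Over all genes tested, 25.4% were higher and 25.1% lower. Kcnn3 had a mean of 17.5, and genes this low enter such a table mostly through the genotype in which they are high.

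Kcnmb1 encodes the accessory subunit that raises the calcium sensitivity of the large-conductance potassium channel in smooth muscle. Its fitted level was 3409 in wild type and 120.3 in the knockout. It fell 28.4-fold per the authors' deposited table (log2 change -4.83, SE 0.23, interval -5.27 to -4.38, adjusted p = 1.02e-96). Kcnmb4, the form of that subunit known from brain, was at 4.16 and 5.23 and did not pass per the authors' deposited table (adjusted p = 0.813). Kcnt2, a sodium-activated pore, lay below the floor in wild type (0.197) and at 66.8 in the knockout. With wild type set at the floor its rise was 66.8-fold, and its log2 fold change per the authors' deposited table was 8.41 (SE 1.24, adjusted p = 1.23e-10).

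Voltage-gated potassium pores that passed were all higher, and their accessory proteins that passed were all lower. Of 7 pores, 5 rose, none fell and 2 did not pass per the authors' deposited table, and the median change was 1.64 (log2). Kcnh2, the pore of the rapid delayed rectifier of heart, rose from 100.01 to 312.8 (log2 change 1.64, SE 0.26, adjusted p = 3.28e-09) per the authors' deposited table. Among the other risers, Kcna4, Kcnc2 and Kcnh3 had means of 3.23 to 18.6 and log2 fold changes of 1.69 to 5.01 per the authors' deposited table. Kcnc2 was below the floor in wild type and at 6.27 in the knockout, which is 6.27-fold with wild type at the floor. Kcnd1, a pore of transient currents, was at 229.4 and 196.2 and did not pass (interval -0.66 to 0.21) per the authors' deposited table. Kcnq3, a pore of the slow current that steadies neurons, had a mean of 4.58 and did not pass per the authors' deposited table.

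Among the 5 accessory proteins 4 fell and none rose per the authors' deposited table, and the median was -1.22. Kcnab1, Kcnab2 and Kcnab3 encode the cytoplasmic beta subunits of Shaker-type channels, which resemble aldo-keto reductases. Kcnab1 fell from 271.2 to 5.69 (log2 change -5.57, SE 0.42, adjusted p = 7.75e-38) per the authors' deposited table. Kcnab3 fell 3.52-fold, from 162.5 to 46.2, and Kcnab2 fell 1.75-fold, from 4474 to 2560, per the authors' deposited table. Per kb of exon, Kcnab2 stood above the other accessory genes in both genotypes, at 802.0 and 458.9 normalised counts. Kcnip3, a calcium-binding partner of transient-current pores that also represses transcription, fell 2.34-fold per the authors' deposited table (adjusted p = 0.0133). The expressed coding genes beside it on chromosome 2 moved by a median of -0.52, and with that subtracted it did not pass (-0.71, adjusted p = 0.182). Kcne3, a small accessory subunit with a mean of 2.18, was the gene nearest outside the threshold per the authors' deposited table (log2 change 4.44, SE 1.99, adjusted p = 0.0503). It passed when the median of expressed genes was set to 0 (adjusted p = 0.0476) and when its neighbours were subtracted (adjusted p = 0.0367).

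Inward rectifiers and tandem-pore channels hold the resting potential. Of these 6 genes, 3 passed per the authors' deposited table, a share close to the 50.5% of all genes tested. Kcnj4, a strong inward rectifier, fell from 50.9 to 14.6 (log2 change -1.80, SE 0.46, adjusted p = 3.05e-04) per the authors' deposited table. Kcnj14, a related rectifier, rose from 5.73 to 18.0 and was the gene nearest inside the threshold (adjusted p = 0.0476) per the authors' deposited table, and it did not pass with neighbours subtracted (adjusted p = 0.0628). Kcnk2, a channel opened by stretch and lipids, was at 186.3 and 191.0 and did not pass (log2 change 0.04, interval -0.46 to 0.53) per the authors' deposited table. Kcnk3, a channel closed by acid, fell 3.07-fold with a mean of 25.2 per the authors' deposited table (adjusted p = 0.0472). That call was lost when the median of expressed genes was set to 0 (adjusted p = 0.0553) and with neighbours subtracted (adjusted p = 0.0819). Kcnk4 and Kcnk6, of the same class, missed the threshold, with changes (log2) of 1.05 and -2.36 per the authors' deposited table.

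**Figure D3:**
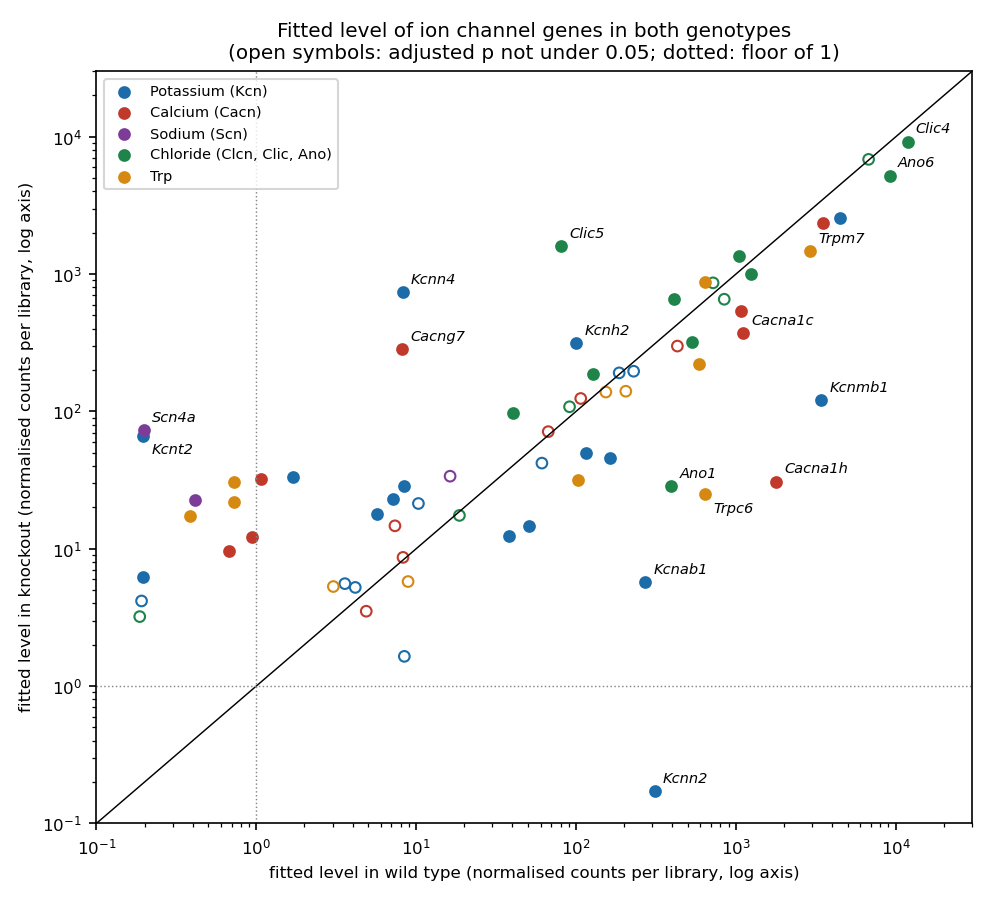
Fitted level of the channel genes, leaving out those not reported here, in wild type (horizontal) and in the knockout (vertical), in normalised counts per library on log axes; the solid line marks equal levels, dotted lines the floor of 1, and open symbols genes that did not pass. Kcnn4, Clic5 and Cacng7 stand above the line, Cacna1h, Kcnmb1, Trpc6, Ano1 and Kcnab1 below it, and Kcnn2 is the 1 gene below the floor in the knockout.

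Calcium channel genes had 4 of 14 higher, 4 lower and 6 that did not pass per the authors' deposited table. The 2 pores that fell were Cacna1h and Cacna1c. Cacna1h, a T-type pore that opens near the resting potential, dropped from a fitted 1792 to 30.9, 58.0-fold per the authors' deposited table (log2 change -5.86, SE 0.31, interval -6.46 to -5.26, adjusted p = 6.43e-79). The genes around it on chromosome 17 had a median of 0.01. Cacna1c, the L-type pore that drives contraction in smooth muscle and heart, fell from 1102 to 370.1 (log2 change -1.57, SE 0.19, adjusted p = 3.33e-15) per the authors' deposited table. The neighbours of Cacna1c on chromosome 6 had a median of -0.75. With that subtracted Cacna1c still passed, at a log2 change of -0.82 (adjusted p = 8.30e-05).

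The remaining pores were low or did not pass. Cacna1b and Cacna1a, pores of presynaptic channels, had fitted wild type levels of 430.7 and 107.1, against 299.3 and 124.3 for the knockout. Neither passed per the authors' deposited table (intervals -1.12 to 0.07 and -0.24 to 0.67). Cacna1i, a T-type pore of neurons, was below the floor in wild type and at 12.2 in the knockout, 12.2-fold with wild type at the floor, and passed per the authors' deposited table (adjusted p = 0.00721). Cacna1g, the third T-type pore, and Cacna1f, known from retina, had means of 8.47 and 4.19 and did not pass per the authors' deposited table.

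Among 7 accessory calcium subunits, 3 rose and 2 fell per the authors' deposited table. Over all genes tested the shares were 25.4% higher and 25.1% lower. The risers Cacnb4 and Cacng6 had means of 16.7 and 5.12, and among all genes with means under 50, 26.8% were higher and 10.3% lower. Genes this low enter such a table mostly through the genotype in which they are high, so the count is a description only. Cacna2d1, the extracellular subunit that brings pores to the membrane and binds gabapentin, fell 2.02-fold, from 1081 to 534.4 (log2 change -1.02, SE 0.17, adjusted p = 3.72e-08) per the authors' deposited table. Cacnb3, a cytoplasmic beta subunit, fell 1.49-fold, from 3516 to 2362, per the authors' deposited table (adjusted p = 4.26e-07). Cacnb4, a beta subunit known from brain, rose from 1.07 to 32.2 (log2 change 4.91, SE 0.98), and Cacnb1 did not pass (0.09, interval -0.48 to 0.65), per the authors' deposited table. Cacng7, a transmembrane subunit that also partners glutamate receptors, rose 34.5-fold, from 8.21 to 282.8, per the authors' deposited table (log2 change 5.11, SE 0.45, adjusted p = 7.73e-28). Cacng6 and Cacng8 neighbour it on chromosome 7. Cacng6 was below the floor in wild type and at 9.56 in the knockout and passed (adjusted p = 0.0176), and Cacng8 did not pass (interval -0.45 to 2.44), per the authors' deposited table. The expressed genes around the 3 had medians of 0.03 to 0.08.

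Sodium channel genes were scarce in wild type, and 3 of 4 were higher per the authors' deposited table, with none lower. All 4 had means under 50, where 26.8% of all genes were higher and 10.3% lower. Genes of low mean enter such a table mostly through the genotype in which they are high, so this count is a description only. Scn4a, the pore of skeletal muscle, was below the floor in wild type (0.198) and at 72.7 in the knockout, 72.7-fold with wild type at the floor. Its log2 fold change per the authors' deposited table, 8.52 (SE 1.27, adjusted p = 1.70e-10), rests on that extrapolated wild type level. Set against the floor it was 6.18, below the 6.48 of Kcnn4. Scn9a, the pore of pain-sensing neurons, was also below the floor in wild type and at 22.6 in the knockout (adjusted p = 1.41e-04) per the authors' deposited table. Scn2a, a pore of brain, was at 16.3 and 33.8 and did not pass (adjusted p = 0.0802) per the authors' deposited table, but passed with neighbours subtracted (adjusted p = 0.0252).

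Chloride channel genes had 5 of 16 higher, 5 lower and 6 that did not pass per the authors' deposited table. Clic proteins are small soluble proteins that can insert into membranes and bind the actin-linked cell cortex. Clic5, known from actin-rich projections such as hair cell stereocilia, rose 19.8-fold, from 81.04 to 1601, per the authors' deposited table (log2 change 4.30, SE 0.15, interval 4.01 to 4.60, adjusted p = 5.46e-172). This was the smallest adjusted p of the 71 channel genes. Clic1 was at 6766 and 6851 and did not pass per the authors' deposited table, where its interval ran from -0.24 to 0.28. Clic4 fell 1.28-fold, from 11854 to 9233, per the authors' deposited table (adjusted p = 0.0278), a call lost when the median of expressed genes was set to 0 (adjusted p = 0.0616) and with neighbours subtracted (adjusted p = 0.162).

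Among anoctamins, Ano1, the calcium-activated chloride channel of smooth muscle and gut pacemaker cells, fell 13.9-fold, from 394.9 to 28.5, per the authors' deposited table (log2 change -3.79, SE 0.47, adjusted p = 6.29e-15). Ano6, which scrambles membrane lipids, fell 1.77-fold, from 9201 to 5199 (log2 change -0.82, SE 0.11), per the authors' deposited table. The neighbours of Ano1 on chromosome 7 and of Ano6 on chromosome 15 had medians of -0.35 and -0.34. With these subtracted both still passed, at log2 changes of -3.45 and -0.48. Ano3, Ano8 and Ano10 rose, with log2 fold changes of 1.27, 0.55 and 0.37 per the authors' deposited table. The neighbours of Ano3 had a median of -0.55, opposite to its own change. Ano8 shares 80 exon bases on the opposite strand with Dda1, and whether counting used strand is not stated. Ano9, with a mean of 1.70, did not pass per the authors' deposited table.

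The Clcn family, mostly exchangers of chloride for protons in endosomes and lysosomes, changed by small amounts, with 1 of 7 higher and 2 lower and log2 fold changes between -0.73 and 0.70 per the authors' deposited table. Clcn3 rose 1.62-fold, from 407.7 to 661.4, and Clcn6, of late endosomes, fell 1.65-fold, from 533.6 to 322.6, per the authors' deposited table. Clcn4 fell 1.25-fold (adjusted p = 0.00555) per the authors' deposited table and did not pass with neighbours subtracted (adjusted p = 0.0653). Clcn7, the lysosomal form that bone resorption needs, was at 720.4 and 864.0 and did not pass (log2 change 0.26, adjusted p = 0.0978) per the authors' deposited table, but passed when the median of expressed genes was set to 0 (adjusted p = 0.0452). Clcn1, Clcn2 and Clcn5 missed the threshold, with changes (log2) of -0.09, 0.25 and -0.37 per the authors' deposited table. With neighbours subtracted Clcn2 passed (log2 change 0.71, adjusted p = 0.0177).

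Trp channel genes had 4 of 12 higher, 4 lower and 4 that did not pass per the authors' deposited table. Trpc6, a channel opened by diacylglycerol and known from smooth muscle and kidney podocytes, fell 25.9-fold, from 643.9 to 24.8, per the authors' deposited table (log2 change -4.70, SE 0.32, interval -5.32 to -4.08, adjusted p = 2.59e-48). Its relative Trpc1 was at 204.9 and 140.4 and did not pass (log2 change -0.55, adjusted p = 0.121) per the authors' deposited table, but passed with neighbours subtracted (adjusted p = 0.0371). Trpa1, the receptor of irritants, fell 2.67-fold, from 589.9 to 220.7, per the authors' deposited table (adjusted p = 3.35e-07). Trpm3, a heat- and steroid-sensitive channel, fell 3.25-fold, from 102.3 to 31.5, per the authors' deposited table. Trpm7, a channel fused to a kinase that carries magnesium, fell 1.96-fold, from 2898 to 1477, per the authors' deposited table (adjusted p = 1.39e-07), and the genes around it on chromosome 2 had a median of -0.47. With that subtracted it still passed, at a log2 change of -0.51 (adjusted p = 0.00952).

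Trpv2 rose 1.37-fold, from 641.2 to 879.9, per the authors' deposited table (adjusted p = 0.0340), a call lost with neighbours subtracted (adjusted p = 0.113). The other 3 risers, Trpm6 (the magnesium channel of kidney and gut), Trpm8 (the cold receptor) and Trpv3 (a warmth receptor of skin), were all below the floor in wild type. Their fitted levels in the knockout were 30.8, 21.9 and 17.4, which are also their folds with wild type at the floor. Trpm1, Trpm4 and Trpv4 missed the threshold, with changes (log2) of 0.81, -0.15 and -0.63 per the authors' deposited table. In all, 9 of the 25 risers were below the floor in wild type and 1 of the 21 genes that fell was below it in the knockout. Those 9 risers had means under 100, and among all genes in that range 28.1% were higher and 11.6% lower. Genes this low enter such a table mostly through the genotype in which they are high. The counts are thus a description only, and the same count over all genes was not made.

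Levels of different genes were compared only per kb of exon, with lengths from the GENCODE M21 annotation. The sums of marker lists given further below are not corrected for length. Among 7 calcium pores, Cacna1h led in wild type at 183.6 normalised counts per kb, 63.4% of the summed level per kb of these pores. In the knockout Cacna1b led at 30.1 per kb, with Cacna1c at 17.5, Cacna1a at 10.9 and Cacna1h at 3.16. With the length of the longest transcript Cacna1b and Cacna1c were close there, at 30.7 and 28.1 per kb. Among 18 potassium pores, Kcnn4 led in the knockout at 144.3 per kb, 41.8% of their sum, with Kcnh2 next at 64.6. In wild type Kcnd1, Kcnn2 and Kcnk2 were close, at 43.4, 41.5 and 37.7 per kb, and their order turned with the length used. Trpm7 led the Trp channels in wild type (256.1 per kb, with Trpv2 at 143.0), and Trpv2 led in the knockout (196.2 per kb, with Trpm7 at 130.5). Ano6 led the anoctamins in both genotypes, at 749.9 and 423.7 per kb. These leaders were the same with the length of the longest transcript, apart from potassium pores in wild type, where Kcnn2 led, and Clcn channels in the knockout, where Clcn4 led in place of Clcn7.

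**Figure D4:**
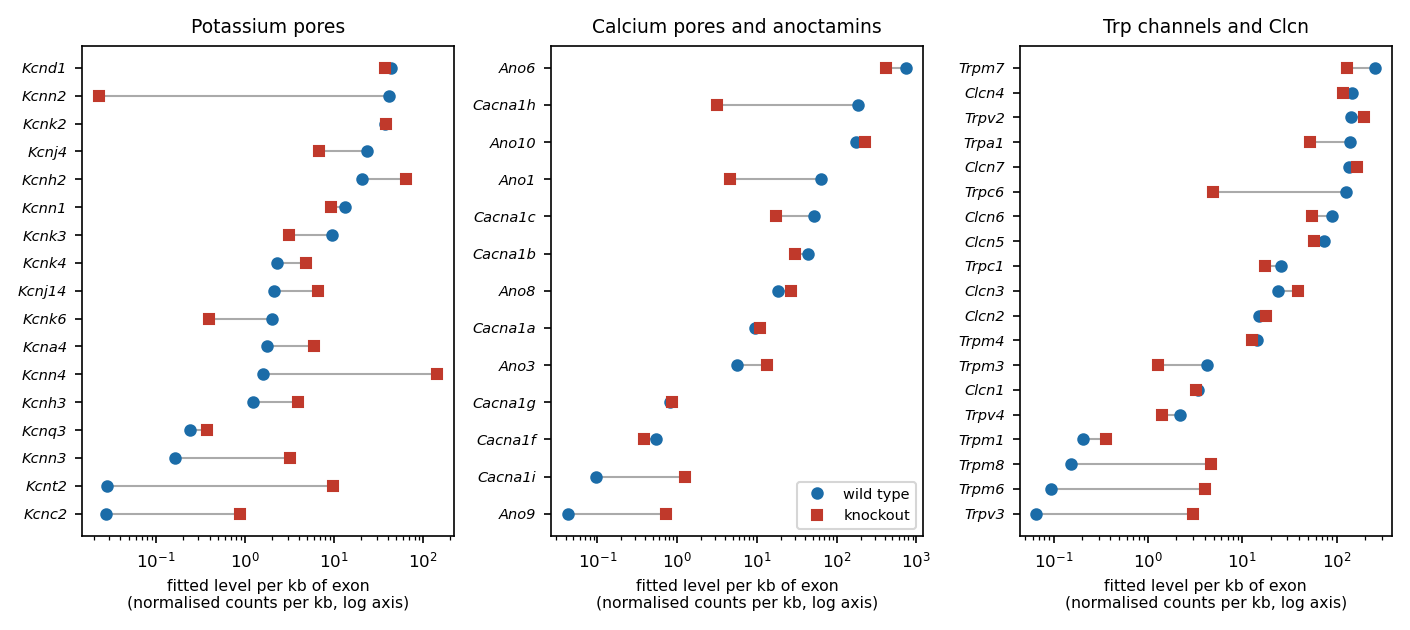
Fitted level per kb of exon (horizontal, log axis) in wild type (blue circles) and in the knockout (red squares) for the potassium pores reported here, calcium pores with anoctamins, and Trp with Clcn genes, ordered by the wild type level. Long grey lines join the genotypes for Kcnn2, Kcnn4, Cacna1h, Ano1 and Trpc6, and fitted levels of genes below the floor are extrapolations.

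Markers of other cell types were examined beside these changes. Of the channel genes described above as known from smooth muscle, Kcnmb1, Cacna1c, Trpc6 and Ano1 fell and Kcnn4 rose. This grouping was made after the values were seen and is not a full list. The remaining channel genes were not sorted by tissue, among them Trpm4, Trpc1, Kcnk2 and Trpv4, which did not pass. Of 8 pericyte and smooth muscle markers 7 passed, all lower, per the authors' deposited table. The summed fitted level of that list was 123507 in wild type and 9136 in the knockout, of which Acta2 alone made 81441 and 5224. The member that did not pass, Cnn1, had fitted levels of 4.395 and 0.340. The part of this shift in the channel results was not tested. Of 6 neuronal markers 2 were tested, Tubb3, which fell from 953.7 to 52.7, and Syt1, which rose from 15.1 to 42.5, per the authors' deposited table. Of 5 skeletal muscle markers 2 were tested: Ttn rose from below the floor to 62.1 and Acta1 fell from 12.6 to 2.29 per the authors' deposited table. Neither glial marker tested passed per the authors' deposited table, and the 4 endothelial markers summed to 63.6 and 50.1, with 1 lower. Blood cell markers summed to 272.4 and 2263. Cd68, a macrophage gene, rose from 179.0 to 2238, while the pan-leukocyte gene Ptprc was at 3.74 and 13.7 and did not pass per the authors' deposited table. Of 7 mesenchymal markers 6 were tested, 3 higher and 3 lower, per the authors' deposited table. Pdgfra (33.6 and 172.5), S100a4 (3866 and 13288) and Col1a2 (15.5 and 37.4) rose. Vim (98030 and 66646), Col1a1 (30866 and 8050) and Pdgfrb (16873 and 2081) fell. Krt8, at 5.38 and 54.4, was the epithelial marker tested of 4 listed. Of 6 adipocyte markers only Fabp4 (4.37 and 307.4) and Pparg (14.4 and 4.39) were tested.

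Position in the genome was measured by the median log2 fold change of the 10 expressed coding genes on each side. It was at least 0.3 either way for 12 of the 71 channel genes. Of the 21 that fell, 5 had neighbours lower by that much (Ano1, Ano6, Cacna1c, Kcnip3 and Trpm7). Of the 25 that rose none had neighbours higher by that much. The same shares over all genes were not computed, so these counts have no baseline. Kcnn2, on chromosome 18, fell among neighbours with a median of 0.50. With neighbours subtracted 44 channel genes passed, 26 higher and 18 lower. Each such test kept the gene's own standard error and took the neighbour median as exact. What moved these neighbourhoods was not tested.

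**Figure D5:**
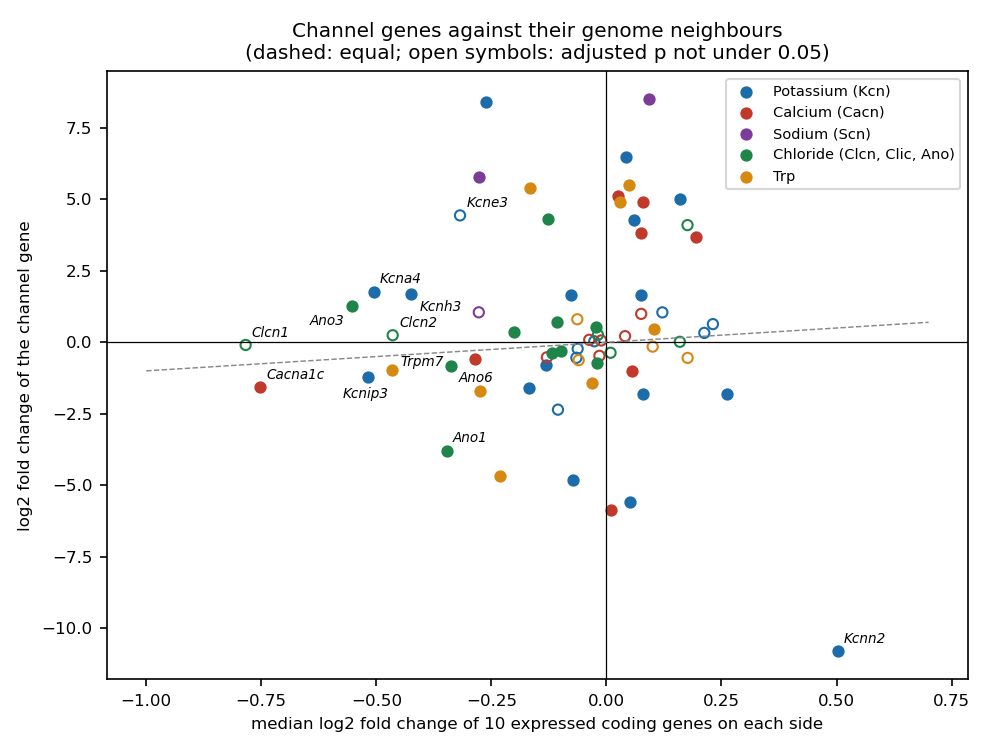
Log2 fold change of the channel genes reported here (vertical) against the median of the 10 expressed coding genes on each side (horizontal), with names for the 12 genes whose neighbours had a median of at least 0.3 either way; the dashed line marks equal values. Steep changes such as that of Kcnn2 stand far from the line, and Kcnip3, Trpm7 and Ano6 lie close to it.

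Other genes of ion transport were examined beside these channels. Of 96 on a list of pumps, exchangers and further channels, 68 were tested. Of these, 15 (22.1%) were higher and 21 (30.9%) lower, and 52.9% passed per the authors' deposited table. Their median change was 0.10 (log2). Over all genes tested, 50.5% passed (25.4% higher, 25.1% lower) and the median was 0.02 per the authors' deposited table. The share that passed on this list was thus close to that of all genes. Genes named next are examples from the list. The beta subunits of the sodium pump bring it to the membrane. Among them, Atp1b1 rose 19.1-fold, from 232.5 to 4443, and Atp1b2 fell 89.3-fold, from 733.3 to 8.21, per the authors' deposited table, and Atp1b3 did not pass (0.18, interval -0.02 to 0.37). Piezo2, a stretch-activated channel, fell 19.4-fold, from 3360 to 172.8, and Atp2b4, a calcium pump of the plasma membrane, fell 17.1-fold, from 1270 to 74.4, per the authors' deposited table. Hvcn1, a proton channel, rose 21.7-fold, from 17.5 to 379.7, per the authors' deposited table. Asic1, an acid-sensing sodium channel, Slc8b1, the mitochondrial sodium-calcium exchanger, and Ttyh2 fell, by log2 changes of -2.11, -1.37 and -1.37 per the authors' deposited table. The neighbours of Ttyh2 had a median of 0.37. Store-operated entry, the refilling of calcium stores through Stim and Orai proteins, was split: Orai1 and Stim1 rose (0.73 and 0.55) and Stim2 and Orai3 fell (-0.64 and -0.42), while Orai2 did not pass (0.45, adjusted p = 0.0683), per the authors' deposited table.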

How the data were processed

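The labels give 6 libraries of mLPS1 cells, 3 wild type and 3 NICD knockout. Salmon, DESeq2 and build mm39 appear in the submitters' processing notes, while versions, settings, filters and strand use are not stated there. The table, as deposited, gives per gene the mean normalised count (a signal), the log2 fold change and its error, the Wald statistic (a score), the p-value and the adjusted p-value. The statistic, p and adjusted p were recomputed from the other columns to within 1.56e-13, and the adjustment spans all 14470 genes with a p; 2 rows have none. Calls are those of the authors' DESeq2 test at an adjusted p under 0.05. An edgeR fit was not run, since the table used holds no counts of single libraries.

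Computed here were 95% Wald intervals (1.96 standard errors), fitted levels, a floor of 1 normalised count per library, medians of 10 neighbours on each side (coding, mean of at least 100, order from GENCODE M21, GRCm38, 14456 rows matched) and exon lengths. The channel genes, lists and named-gene rule (past the threshold at a mean of at least 50, the 2 highest of each family and those nearest the threshold) were chosen with earlier results of these data known. Some genes enter the counts but are not reported here by name. Other names were chosen after their values were seen. Python 3.11.15, numpy 2.4.6, pandas 2.3.3, scipy 1.17.1 and matplotlib 3.10.9 were used, and the recomputed tests were tested on simulated data.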

Additional observations from a re-analysis of the deposited data

How the results depend on the processing

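Of the 46 channel genes past the threshold (25 higher, 21 lower), an adjusted p of 0.01 kept 34 (16 higher), Bonferroni 22 (8 higher) and a test of change over 2-fold 19 (11 higher, 8 lower). With a mean of at least 100, 25 of 34 passed (8 higher), since fewer genes were tested. For the other ion transport genes, 36 as deposited became 16 under Bonferroni and 7 for change over 2-fold. No count moved by over 1.5 times with a mean of at least 10, after centring on expressed genes (median -0.05) or with neighbours subtracted, and no passing gene changed sign under these alternatives. With the median of expressed genes set to 0, 2 genes lost and 2 gained a call; with neighbours subtracted 6 lost and 4 gained it. Family medians depended on the mean required: the calcium- and sodium-activated potassium genes had 0.33 over all, 1.87 at a mean of at least 10 and -4.83 at 100. The alternative of the lower of 2 rows was not run, as no symbol had 2. Leaving out replicates, and edgeR, were not possible without values of single libraries. No paired analysis was possible because the table holds no values of single libraries. The level per kb with the longest transcript was chosen after seeing the data: Cacna1h in wild type moved from 183.6 to 217.7 and Kcnn4 in the knockout from 144.3 to 202.9.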
